A study of Sus scrofa with 15 samples.

Results

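Testis RNA of piglets fed cow's milk formula (Milk) was compared with that of piglets fed sow milk (Sow), to ask what formula feeding alone, without soy, estradiol or genistein, did to gene expression in the neonatal testis. The comparison used every Milk and every Sow library of the study, 3 of each, which is 6 of the 15 libraries, and every gene that passed a filter on low counts, which is 15328 of the 30476 genes in the table. All were male Dutch Landrace Duroc piglets that had suckled for 2 days and were then given their diet from postnatal day 2 until sacrifice on day 21. Sow piglets drank purchased sow milk from a bowl, so suckling was absent in both groups. Milk piglets drank Similac Advance, a commercial infant formula made from cow's milk. The study modified its formula diets for the needs of growing pigs. The other diets of the study were soy formula (Soy) and the same milk formula with added 17β-estradiol (M + E2) or genistein (M + G). Piglets came from many litters, and each library was taken as 1 piglet, which the study's text and the sample titles do not state. With 3 libraries in a group the comparison can show only differences that are large beside the spread between them.

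The neonatal testis is built of cords of Sertoli cells that surround the germ cells, wrapped in contractile peritubular myoid cells, with Leydig cells and vessels between the cords. Leydig cells make testosterone and other steroids under luteinizing hormone, and Sertoli cells multiply under follicle-stimulating hormone. Sow milk and cow's milk formula differ in fat, lactose, iron and bioactive proteins. In whole testis RNA, fewer cells of a type and less RNA per cell cannot be told apart.

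Between 7385856 and 9001617 reads were counted on genes in each of the 6 libraries. Levels are given as CPM, read counts scaled to a common library size with the TMM method of edgeR. Values are listed for Milk 1, 2 and 3, and for the Sow library whose column has no number, Sow 2 and Sow 3, in this order. The tissue was testis by its markers in every library of the comparison, with 1783 to 5308 CPM for STAR and 3581 to 9967 CPM for CYP17A1 (Leydig cells), 287 to 696 CPM for AMH and 36.2 to 103 CPM for SOX9 (Sertoli cells), and 75.7 to 137 CPM for KIT (germ cells). Of the other germ cell markers chosen, DDX4 was much lower, with at most 85 reads in a library against 1146 for KIT. SALL4 had no record under its symbol, and DAZL was not analysed here. Of the rete and epididymal list, PAX2 had at most 3 reads and CRISP1 1 read in a library, while KRT8, a keratin of many epithelia, was at 128 to 199.8 CPM and the 11 members tested summed to 208 to 239 CPM in Milk and 200.3 to 243 CPM in Sow. The correlation of log2 CPM across genes was 0.968 to 0.981 within Sow, 0.930 to 0.962 within Milk and 0.887 to 0.976 between the groups. Some single libraries stood apart. Sow 2, which the study left out of its analysis, had the lowest TMM factor, 0.762 against 0.918 to 1.05 in the other 5, Milk 2 had high levels of contractile and low levels of Leydig and Sertoli cell genes, and Milk 3 had low levels of ribosomal protein genes. Calls and the counts of gene list members are therefore given with and without Sow 2.

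Few genes were called between Milk and Sow. Calls needed at least a 2-fold change and, over all genes tested by edgeR's quasi-likelihood test, an adjusted p (Benjamini-Hochberg) no higher than 0.05. By this rule 5 genes rose (0.0326% of the genes tested) and 4 genes fell (0.0261%), which is 9 calls in all (0.0587%), 8 of which are described here. Without Sow 2 there were 3 calls among 15634 genes (0.0192%), with 1 gene higher in Milk (0.0064%), and PHYHIPL and ENSSSCG00000048477 lower (0.0128%). Below the threshold the difference was broad. An unadjusted p under 0.05 was found for 27.6% of genes (14.9% higher and 12.7% lower in Milk), and for 12.1% without Sow 2 (6.13% and 5.99%). The 3 Milk libraries did not overlap the 3 Sow libraries in 27.7% of genes. At least 2-fold, in the fitted values, were 945 genes higher and 488 lower in Milk, and the median log2 fold change of all genes was 0.04. Over the other tests and settings tried, the number of calls ran from 0 to 575.

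**Figure D1:**
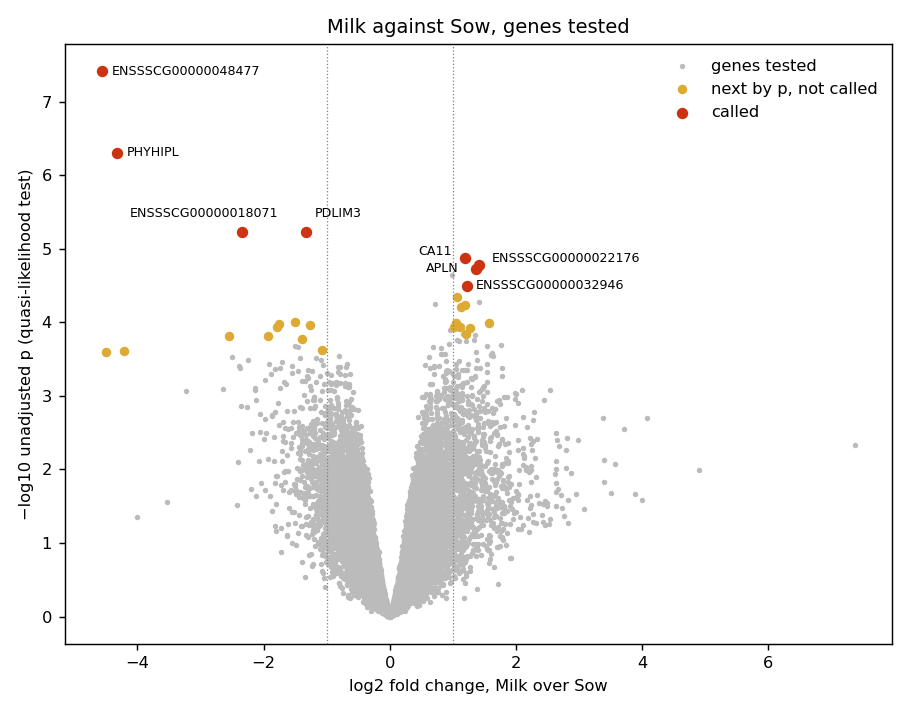
The log2 fold change of Milk over Sow (x axis) against −log10 of the unadjusted p (y axis) for the genes tested, 1 point a gene, with dotted lines at 2-fold. The 8 called genes described (red) include PHYHIPL and ENSSSCG00000048477 at the upper left, well above the rest, and the next genes by p among those named (ochre) fall just short of the threshold.

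Among called genes with a symbol, the steepest fall was in PHYHIPL (Sscrofa11.1, chr14:62525915-62630383), a gene expressed in brain whose protein resembles an interactor of the peroxisomal enzyme phytanoyl-CoA hydroxylase. It stood at 55.4, 44.1 and 25.2 CPM in the Sow libraries and at 1.03, 3.10 and 1.99 CPM in Milk. The lowest Sow library was far above the highest Milk library, which held 25 reads. The log2 fold change was −4.32 (SE 0.50, 19.9-fold lower, adjusted p = 0.00315), and −4.33 without Sow 2 (adjusted p = 0.0183). An unnamed gene, ENSSSCG00000048477, ran parallel to it. It had 24.6, 19 and 10.3 CPM in Sow and 1.03, 0.744 and 0.498 CPM in Milk, where 4 to 7 reads a library were counted. In both genes the unnumbered Sow library was highest and Sow 3 lowest, and no Milk library reached the range of Sow. This gene fell by 4.55 on the log2 scale (SE 0.43, 23.5-fold, adjusted p = 0.000589), the smallest adjusted p of all genes, and the adjusted p was 0.00357 without Sow 2. Whether the 2 records share a locus was not analysed here.

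The other genes that fell were PDLIM3 and an unnamed gene. PDLIM3 (chr15:46516178-46546658) encodes a PDZ and LIM domain protein that binds α-actinin at the Z-line of muscle, and had 38.7, 58.6 and 57.5 CPM in Sow and 16.9, 24.3 and 20.2 CPM in Milk. The groups were well separated. Its log2 fold change was −1.33 (SE 0.19, adjusted p = 0.0179), and without Sow 2 it missed the threshold (−1.27, adjusted p = 0.0727). For ENSSSCG00000018071 the levels were 13.5, 15.9 and 18 CPM in Sow and 4.14, 3.47 and 1.74 CPM in Milk. Every Milk library was below every Sow library, and Sow 3 was highest. This gene fell by 2.34 on the log2 scale (SE 0.34, adjusted p = 0.0179), and without Sow 2 it missed the threshold (−2.38, adjusted p = 0.0727). Its identifier lies between those of the mitochondrial genes ND2 (ENSSSCG00000018069) and COX1 (ENSSSCG00000018075), and what it encodes was not analysed here.

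Among the genes that rose, APLN (chrX:106236746-106246563) encodes apelin, a peptide secreted by endothelium and other cells that acts on vessel growth and tone. Its levels were 79.2, 77.0 and 88.5 CPM in Milk against 30.4, 35.5 and 29.0 CPM in Sow, without overlap, with a log2 fold change of 1.37 (SE 0.22, adjusted p = 0.0355). CA11 (chr6:53993183-53999357), a carbonic anhydrase-related protein without enzyme activity, had 14.3, 21.0 and 13.9 CPM in Milk against 7.94, 6.57 and 6.95 CPM in Sow. Milk 2 was the highest library, and the rise was 1.20 on the log2 scale (SE 0.19, adjusted p = 0.0345).

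The other rises described were in genes without a symbol. ENSSSCG00000022176 was the most abundant of the 8, at 484, 749 and 528 CPM in Milk and 214, 212 and 235 CPM in Sow (log2 fold change 1.41, SE 0.22, adjusted p = 0.0355). ENSSSCG00000032946 was at 35.2, 48.0 and 25.5 CPM in Milk and 15.1, 14.6 and 16.8 CPM in Sow (log2 fold change 1.23, SE 0.21, adjusted p = 0.0488). In both, Milk 2 was highest and the Sow libraries were close together. Only PHYHIPL and ENSSSCG00000048477 of the 8 were called whichever of the 6 libraries was left out. ENSSSCG00000022176 and APLN missed the threshold without any of the 6, with adjusted p between 0.0598 and 0.245 for the first and between 0.0599 and 0.161 for APLN. ENSSSCG00000032946 and CA11 were kept only without Milk 3. PDLIM3 was lost without Milk 1, Milk 3, Sow 2 or Sow 3, with an adjusted p of up to 0.0958, and ENSSSCG00000018071 without Milk 2, Milk 3, Sow 2 or Sow 3, also up to 0.0958.

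**Figure D2:**
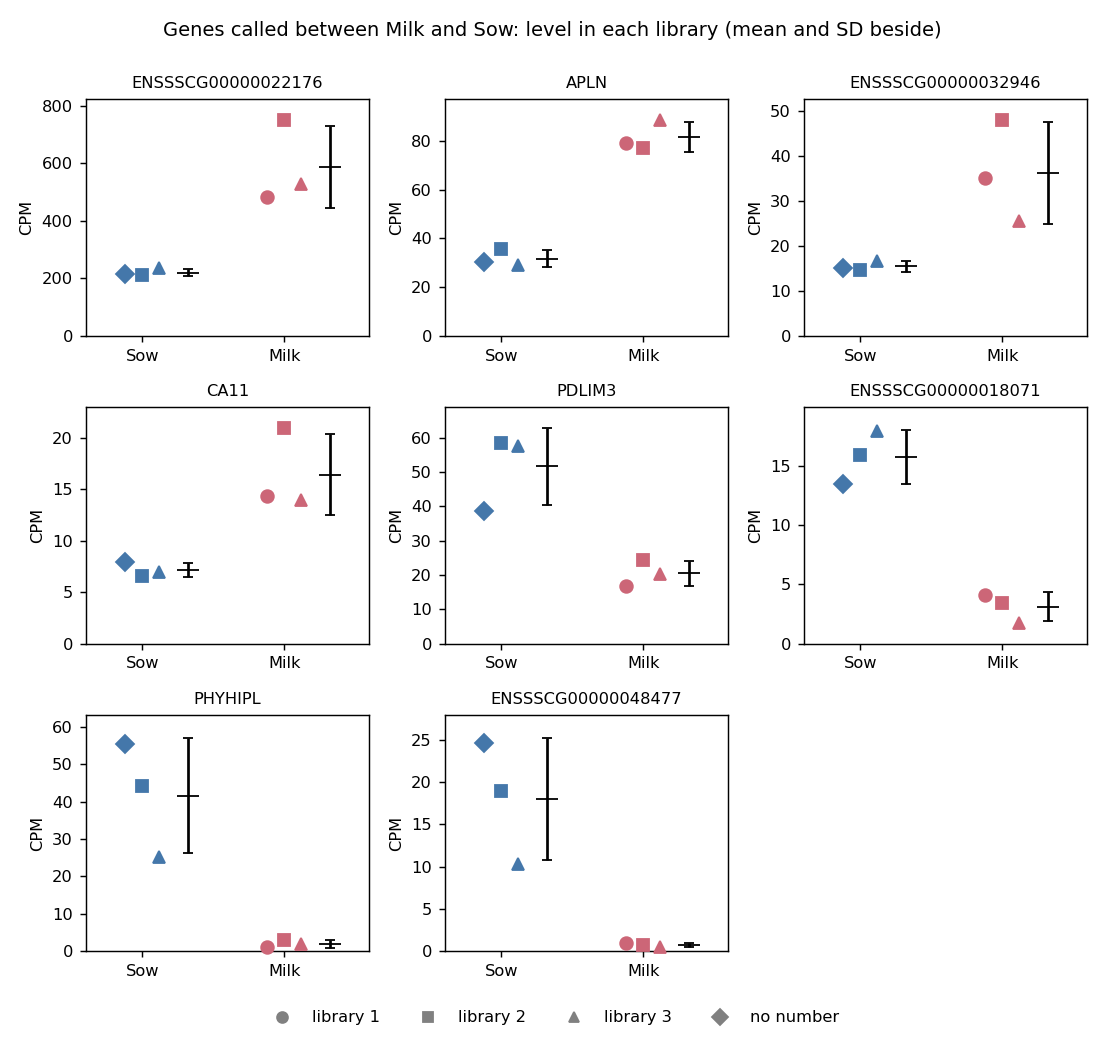
Level in CPM (y axis) of the 8 called genes described, in the 3 Sow libraries (blue) and the 3 Milk libraries (red), with the marker shape giving the library number and the mean and SD drawn beside the points. In all 8 panels the groups do not overlap, and Milk 2 is the highest library in ENSSSCG00000022176, ENSSSCG00000032946 and CA11.

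The genes next in rank higher in Milk had adjusted p between 0.0623 and 0.0722 and were not called. SMAD7, an inhibitor of TGF-β signaling, stood at 31.9, 36.3 and 36.0 CPM in Milk and 17.4, 13.6 and 18.8 CPM in Sow (log2 fold change 1.07, SE 0.18). NEURL1B, a ubiquitin ligase of the Notch pathway, stood at 73.0, 98.1 and 149.8 CPM against 34.7, 28.2 and 45.3 CPM (1.57, SE 0.29). GPR4, an acid-sensing receptor of endothelium, stood at 7.09, 7.56 and 9.84 CPM against 4.57, 2.34 and 3.23 CPM (1.27, SE 0.24). In all 3 genes every Milk library was above every Sow library, as the rule for naming them required. Sow 2 was lowest of the Sow libraries. The others named by the same rule were TSPAN15, EMID1, SLX9, SLC9A3R2, CDC42EP1 and SLCO2B1, an organic anion transporter, with log2 fold changes between 1.03 and 1.20. Without Sow 2 the adjusted p of these 9 genes were between 0.352 and 0.360.

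Among genes lower in Milk that were not called, the nearest to the threshold shared an adjusted p of 0.0722. TFRC, the transferrin receptor that takes up iron, had 717, 1213 and 611 CPM in Sow and 322, 195 and 148 CPM in Milk. Its highest Milk library was below its lowest Sow library, and the highest level of all was in Sow 2 (log2 fold change −1.93, SE 0.38, and −1.62 without Sow 2). TXNIP, a protein induced by glucose that restrains thioredoxin and glucose uptake, had 864, 536 and 786 CPM in Sow and 377, 393 and 263 CPM in Milk (−1.08, SE 0.22). Here Sow 2 was the lowest Sow library, and without it the log2 fold change was −1.30 with an adjusted p of 0.137. FMO1, a flavin monooxygenase of drug metabolism, had 511, 312 and 401 CPM in Sow and 113, 51.1 and 95.3 CPM in Milk (−2.24, SE 0.48). Milk 2 was lowest, and the groups did not overlap.

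FNIP2, a partner of folliculin in AMPK and mTOR signaling, stood at 187, 400.1 and 312 CPM in Sow and 109, 153 and 110.5 CPM in Milk (−1.27, SE 0.24). SPTLC3, a subunit of the enzyme that starts sphingolipid synthesis, stood at 15.3, 18.5 and 20.4 CPM and 7.83, 4.22 and 8.59 CPM (−1.40, SE 0.28). MYBPC1, a myosin-binding protein of slow skeletal muscle, stood at 8.61, 5.55 and 5.87 CPM and 2.07, 2.48 and 2.49 CPM (−1.5, SE 0.28). None of these 3 had overlapping groups, as the rule for naming them required, and COCH and KRT222 were of the same kind (−1.78 and −2.55). Immune genes made up the rest. JCHAIN, the joining chain of secreted antibodies, had 31.3, 58.9 and 31.7 CPM in Sow and 16.0, 11.9 and 8.22 CPM in Milk (−1.76, SE 0.33). S100A12, a neutrophil protein, had 6.19, 28.3 and 5.87 CPM in Sow and 1.33, 0.744 and 0.125 CPM in Milk, and NPG1, which encodes the antimicrobial peptide protegrin, had 5.65, 201 and 25 CPM and 3.25, 3.22 and 3.74 CPM. Sow 2 was the highest library in each of these immune genes, and it set most of the mean of NPG1. The log2 fold change of NPG1 was −4.49 with Sow 2 and −2.20 without it, and that of S100A12 was −4.21 and −3.10.

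The 26 gene lists drawn up for testis cell types and for pathways held 1 called gene, APLN, in the endothelial list. They are described by the number of members at an unadjusted p under 0.05 and by the median log2 fold change, to be read beside 27.6% and 0.04 for all genes, and beside 12.1% for counts without Sow 2. These counts describe the lists and are not tests of them. Lists of vessel, connective and contractile tissue stood highest. Those of ribosomal proteins and nuclear-encoded respiratory chain subunits stood lowest, together with a small neutrophil list.

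**Figure D3:**
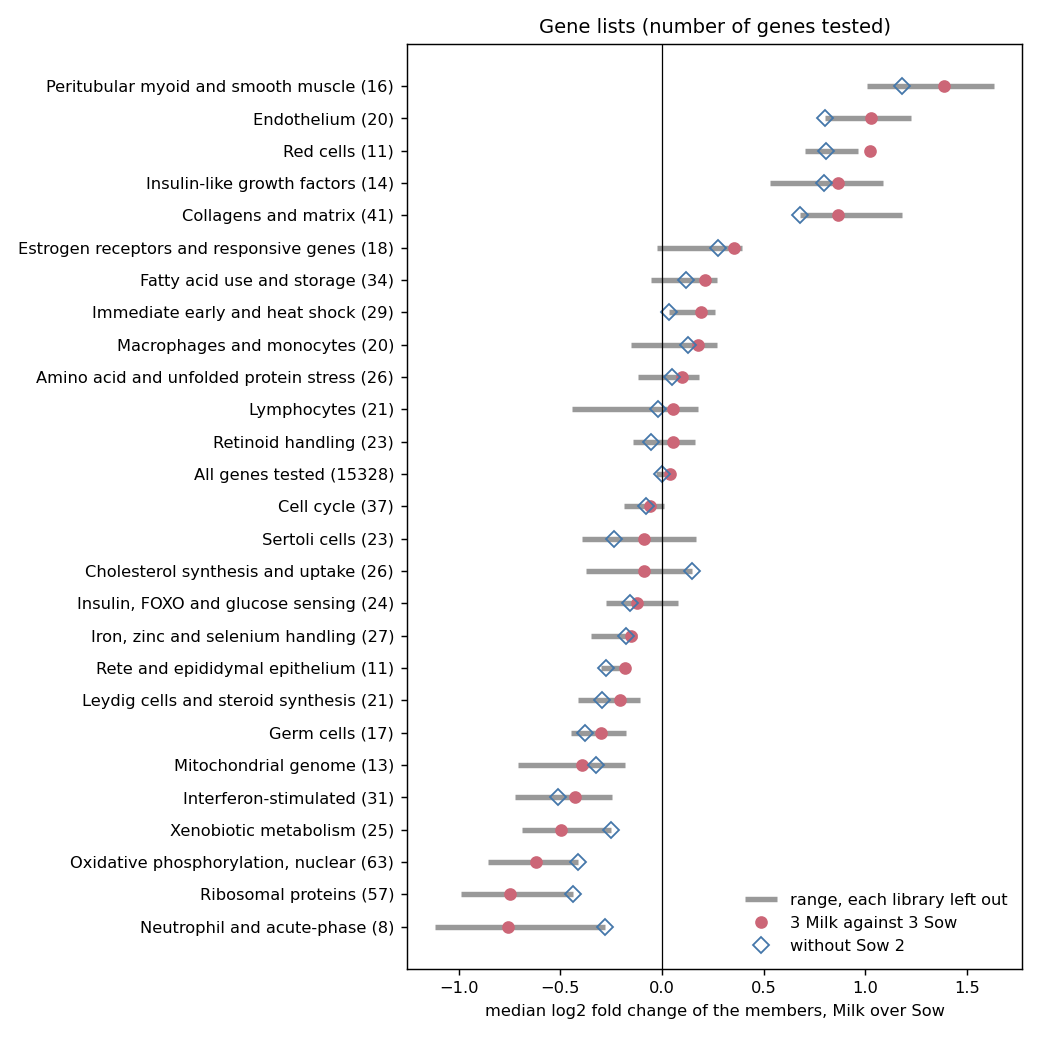
Median log2 fold change of Milk over Sow (x axis) for the members of each gene list (y axis, with the number of genes tested), for all 6 libraries (red points) and without Sow 2 (blue diamonds), and the range when each of the 6 libraries was left out (grey bars). Contractile, endothelial, red cell, growth factor and matrix lists lie between 0.87 and 1.39, and all of these bars stay above 0, while the ribosomal and respiratory chain bars stay below 0.

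Contractile genes of peritubular myoid cells and smooth muscle had the highest median, 1.39. Of the 16 genes tested, 15 had a p under 0.05 (93.8%), all higher in Milk, and 14 had every Milk library above every Sow library. Over all genes 14.9% were higher at a p under 0.05, and 2118 of 15328 had every Milk library above every Sow library. CALD1, the actin-binding protein caldesmon, had the lowest p, with 413, 536 and 419.8 CPM in Milk and 216, 217 and 234 CPM in Sow (log2 fold change 1.03, SE 0.26, adjusted p = 0.0772). MYH11, smooth muscle myosin heavy chain, had 68.9, 479.5 and 95 CPM in Milk and 17.6, 7.74 and 35.7 CPM in Sow (3.39, SE 1.09, adjusted p = 0.102). For ACTA2, smooth muscle actin, the levels were 471, 1476 and 381 CPM and 172, 140.0 and 319 CPM (1.88, SE 0.76, adjusted p = 0.142). Milk 2 was by far the highest library in MYH11 and ACTA2, whereas CALD1 was more even. Summed over the list, the level was 2534 to 6658 CPM in Milk and 1191 to 1850.3 CPM in Sow. The median was 1.01 without Milk 2 and 1.18 without Sow 2, where 8 genes had a p under 0.05. PDLIM3, the muscle gene that fell, is not in this list and moved the other way.

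Of 20 endothelial genes tested, 14 had a p under 0.05 (70.0%), all higher in Milk, with a median of 1.03, and of 0.80 without Sow 2, where 12 had a p under 0.05. Besides APLN and GPR4, CDH5, the cadherin of endothelial junctions, was at 90.3, 145 and 149 CPM in Milk and 52.9, 36.1 and 67.9 CPM in Sow (1.29, SE 0.32, adjusted p = 0.0772). VWF, which encodes the clotting protein von Willebrand factor, was at 113, 440.1 and 265 CPM and 72.5, 45.0 and 107 CPM (1.87, SE 0.55, adjusted p = 0.0903). Both had Milk above Sow in every library. The lymphatic marker LYVE1 overlapped fully, at 22.2, 18.4 and 13.1 CPM in Milk and 23.8, 18.3 and 22.6 CPM in Sow (−0.27, 95% interval −1.04 to 0.49). Summed over the list, the level was 1098 to 2106 CPM in Milk and 599 to 839 CPM in Sow. APLN and GPR4 belong to this list, and the part of endothelial content in their differences was not tested.

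Matrix genes shared the direction of the endothelial genes, with 22 of 41 at a p under 0.05 (53.7%), all higher in Milk, and a median of 0.87. With Sow 2 left out the count was 9 and the median 0.68. COL18A1, a collagen of basement membranes, had 179, 237 and 350.3 CPM in Milk and 111, 60.2 and 125 CPM in Sow (1.37, SE 0.36, adjusted p = 0.0798). COL1A1, the main collagen of fibrous tissue, had 5183, 17665 and 6485 CPM and 1607, 1041 and 4538 CPM (2.03, SE 0.79, adjusted p = 0.133), with Milk 2 highest and Sow 2 lowest. The proteoglycan LUM stood the other way, at 300.2, 365 and 239 CPM in Milk and 361, 509 and 420.4 CPM in Sow (−0.51, 95% interval −1.06 to 0.04). In the insulin-like growth factor list, 7 of 14 genes had a p under 0.05 (50%), all higher in Milk, with a median of 0.87 that was 0.53 without Milk 2. The count was 3 and the median 0.80 without Sow 2. IGFBP4, a binding protein of these factors, was narrow in range, at 423, 482 and 481 CPM in Milk and 295, 303 and 331 CPM in Sow (0.58, SE 0.16, adjusted p = 0.0872). IGF1 itself was at 13.6, 60.1 and 13.7 CPM and 4.04, 6.86 and 12.1 CPM, so that Milk 2 stood alone (1.92, SE 0.70, adjusted p = 0.119).

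Red cell genes had a median of 1.02 over 11 genes, 4 of them with a p under 0.05 (36.4%, and 2 without Sow 2), all higher in Milk, and a summed level of 408 to 1534 CPM in Milk and 526 to 601 CPM in Sow. AHSP, which stabilises α-globin, was at 6.06, 4.71 and 1.12 CPM in Milk and 0.538, 1.17 and 0.719 CPM in Sow. For HBB, the β-globin gene, the levels were 1327, 1465 and 356 CPM and 517, 558 and 476 CPM. In both, Milk 1 and 2 were above all Sow libraries and Milk 3 was not. The log2 fold change was above 0 in 10 of the 11 genes, and without Sow 2 it was below 0 in 3. ALAS2, an erythroid gene of the list, changed sign when single libraries were left out. KLF1, the defining erythroid transcription factor, had 0 reads in all 6 libraries, which allows a level of up to 0.359 to 0.443 CPM. The part of red cells in the higher endothelial and matrix values was not tested.

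Ribosomal protein genes stood below Sow throughout, with a negative log2 fold change in 57 of 57 genes tested, against 47.5% of all genes. Of them 19 had a p under 0.05 (33.3%), all lower in Milk, and the median was −0.75. RPS15A had 504, 517 and 182 CPM in Milk and 855, 1524 and 762 CPM in Sow (−1.39, SE 0.47, adjusted p = 0.108). Milk 3 and Sow 2 were the extreme libraries of this list. The mean level of the list, relative to the mean of the 6 libraries, was −0.01, 0.04 and −1.19 log2 units in Milk and 0.23, 0.88 and 0.05 in Sow, so Milk 3 was low and Sow 2 was high. The median was −0.45 without Milk 3 and −0.44 without Sow 2, and leaving out both was not tried. Without Sow 2, 0 genes of the list had a p under 0.05, and 56 still had a log2 fold change below 0.

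Nuclear-encoded subunits of the respiratory chain had 33 of 63 genes at a p under 0.05 (52.4%), all lower in Milk, and a median of −0.62. Summed over the list, the level was 6956 to 12183 CPM in Milk and 11759 to 20757 CPM in Sow. By library the mean level of the list was 0.05, −0.17 and −0.78 log2 units in Milk and 0.18, 0.72 and −0.00 in Sow, with the same extremes as the ribosomal list. Without Sow 2 the median was −0.41, and 6 genes had a p under 0.05. The 13 protein-coding genes of the mitochondrial genome, which encode subunits of the same complexes, had a median of −0.39. Of these 13, 0 had a p under 0.05, with or without Sow 2. ATP8 had the lowest p among them, at 289, 129 and 187 CPM in Milk and 272, 353 and 327 CPM in Sow (−0.65, 95% interval −1.33 to 0.02).

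**Figure D4:**
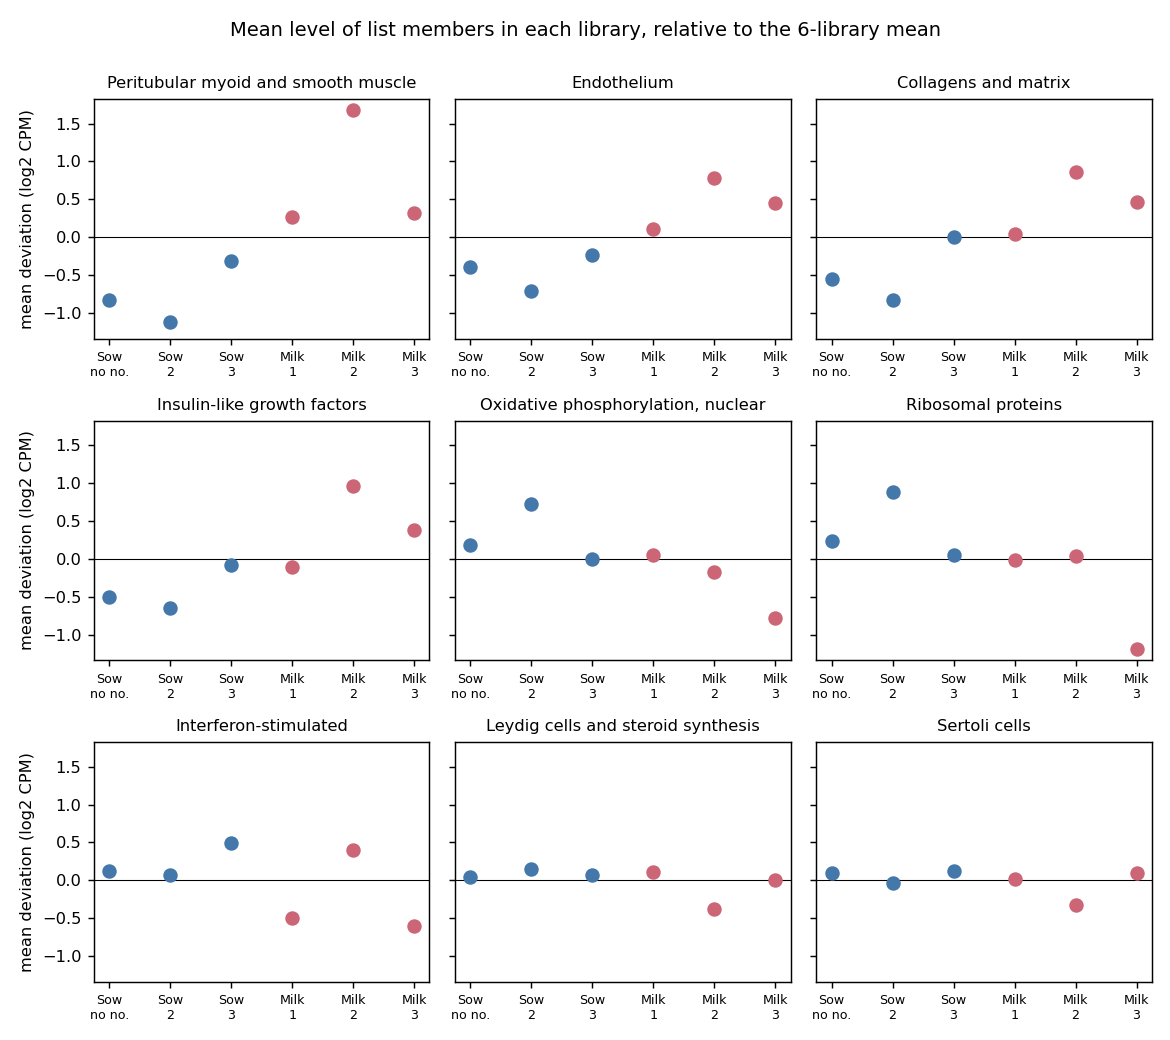
Mean level of the members of 9 gene lists in each library (y axis, log2 CPM relative to the mean of the 6 libraries, the same scale in all panels), for the 3 Sow (blue) and 3 Milk (red) libraries on the x axis. Milk 2 is highest in the contractile, endothelial, matrix and growth factor lists and lowest in the Leydig and Sertoli lists, and Milk 3 is lowest and Sow 2 highest in the respiratory chain and ribosomal lists.

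Interferon-stimulated genes had a median of −0.43 over 31 genes (−0.51 without Sow 2), with 8 at a p under 0.05 (25.8%, and 9 without Sow 2), all lower in Milk. HERC5, which attaches the ubiquitin-like protein ISG15 to others, had 5.32, 6.94 and 8.84 CPM in Milk and 11.7, 12.6 and 15.9 CPM in Sow (−0.93, SE 0.21, adjusted p = 0.0722). The Milk libraries were uneven in this list. Its mean level was −0.49, 0.40 and −0.60 log2 units in Milk and 0.13, 0.07 and 0.50 in Sow, so Milk 2 lay within the range of Sow, and the median was −0.72 without it. In the neutrophil and acute-phase list, 2 of 8 genes had a p under 0.05, both lower in Milk, and 1 without Sow 2. Its summed level was 19.3 to 31.3 CPM in Milk and 33.2 to 93.9 CPM in Sow, and its median was −0.76 with and −0.28 without Sow 2. Lymphocyte genes had a median of 0.05 over 21 genes, with 3 lower and 0 higher at a p under 0.05 (1 and 0 without Sow 2). Macrophage genes had a median of 0.18 over 20, with 3 higher and 1 lower (2 and 0 without Sow 2), and their summed levels overlapped between the groups (179 to 358 and 237 to 381 CPM, and 595 to 1238 and 687 to 845 CPM, each for Milk and Sow).

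Genes of nutrient handling were mixed. In the list of insulin, FOXO and glucose sensing, 6 of 24 genes lay lower in Milk at a p under 0.05 and 1 higher (29.2%). With Sow 2 included this share was near the 27.6% of all genes, and the median was −0.12. Without Sow 2 the counts were 8 and 0, a share above the 12.1% of all genes (5.99% lower and 6.13% higher). Besides TXNIP, the 6 were ARRDC3, KLHL24, CCNG2, SESN1 and PPM1K, with log2 fold changes from −1.30 to −0.79. TP53INP2, which acts in autophagy, lay the other way, at 74.6, 42.7 and 93.5 CPM in Milk and 43.2, 41.2 and 41.5 CPM in Sow. PDK4, the fasting-induced brake on pyruvate oxidation, was at 84.0, 54.3 and 67.2 CPM in Milk and 143, 74.3 and 141 CPM in Sow (−0.80, 95% interval −1.42 to −0.19, adjusted p = 0.115). In the list of iron, zinc and selenium handling, 6 of 27 genes were lower and 1 higher at a p under 0.05. That is 25.9% of the list, against 27.6% of all genes. The median was −0.15, and without Sow 2 the counts were 5 and 0, beside 12.1% of all genes (5.99% lower). The iron genes among the 6 were TFRC, IREB2, an iron-sensing regulator (−0.52), and FBXL5, which degrades it (−0.77). FTL, the ferritin light chain that stores iron, overlapped, at 10561, 5342 and 4861 CPM in Milk and 7807, 13359.7 and 6214 CPM in Sow (−0.40, 95% interval −1.36 to 0.56).

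Cholesterol genes had 4 higher and 1 lower of 26 at a p under 0.05, and not 1 gene of the list was without overlap between the groups (background 27.7%). Without Sow 2 the counts were 1 and 0, and the median of −0.09 became 0.15. INSIG1, which holds back sterol synthesis when cholesterol is ample, had 102, 60.4 and 109 CPM in Milk and 42.5, 54.3 and 69.4 CPM in Sow (0.71, 95% interval 0.18 to 1.23, adjusted p = 0.111). Fatty acid genes had 4 higher and 5 lower of 34 (1 and 3 without Sow 2). LIPE, hormone-sensitive lipase, stood at 10.6, 11.7 and 19.1 CPM in Milk and 9.28, 6.86 and 8.15 CPM in Sow (0.77, SE 0.23), and LPL, lipoprotein lipase, at 11.4, 13.8 and 15.7 CPM and 21.1, 38.8 and 23.4 CPM (−1.02, SE 0.28). The pair of lipases thus pointed in opposite directions, with adjusted p of 0.0940 and 0.0861. In xenobiotic metabolism 6 of 25 genes were lower and 2 higher at a p under 0.05 (32%), with a median of −0.50. Without Sow 2 the counts were 4 and 0 and the median −0.25. FMO1 led the lower ones, and CYP2A19, at 3.10, 5.08 and 2.86 CPM in Milk and 1.75, 0.584 and 2.52 CPM in Sow, the higher ones.

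Genes of the hormone-producing and germ cells gave no call. STAR, which brings cholesterol into the mitochondria of Leydig cells, had 5308, 1783 and 3279 CPM in Milk and 3888, 3801 and 3089 CPM in Sow (log2 fold change −0.06, 95% interval −0.81 to 0.70). CYP17A1, which makes androgens from progestins, had 7920.4, 3581 and 9967 CPM and 7551, 6029 and 6784 CPM (0.08, interval −0.63 to 0.79). For CYP19A1, the aromatase that makes estrogens, the levels were 4552, 1797 and 3718 CPM and 3818, 5243 and 4337 CPM (−0.41, interval −1.09 to 0.26). In each of these genes Milk 2 was the lowest of the 6 libraries, at a distance from Milk 1 and 3, which lay within or above the range of Sow or just below it. CYP11A1, which cleaves the side chain of cholesterol, was the only one of these 4 without overlap, at 2889, 1145 and 2816 CPM in Milk and 3075, 3198 and 2944 CPM in Sow (−0.43, interval −1.09 to 0.23). INSL3, the hormone of testis descent, had an interval of −0.92 to 0.37, and LHCGR, the luteinizing hormone receptor, of −0.72 to 0.45. These intervals are wide, and with 3 libraries a group differences within their bounds were not excluded.

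The same held for Sertoli cells. AMH, the hormone that makes the female ducts regress, had 493, 349 and 658 CPM in Milk and 696, 287 and 410.2 CPM in Sow (0.11, interval −0.55 to 0.76). FSHR, the follicle-stimulating hormone receptor, had 62.4, 26.3 and 67.1 CPM and 60.3, 46.4 and 58.9 CPM (−0.09, interval −0.76 to 0.58), and SOX9, the factor that sets Sertoli fate, had 65.9, 36.2 and 103 CPM and 81.7, 60.0 and 77.8 CPM (−0.09, interval −0.78 to 0.59). Milk 2 was lowest in FSHR and SOX9, and Milk and Sow overlapped in all 3. GJA1, the gap junction protein connexin of Sertoli and Leydig cells, did not overlap, at 325, 294 and 159.9 CPM in Milk and 529, 484 and 445 CPM in Sow (−0.90, SE 0.27, adjusted p = 0.0903). Of 23 Sertoli genes 3 were lower and 2 higher at a p under 0.05 (4 and 2 without Sow 2), and of 21 Leydig genes 1 was lower and 1 higher (0 and 0 without Sow 2). The medians were −0.09 and −0.21. The higher Leydig list gene was SULT1E1, the sulfotransferase that inactivates estrogens, at 1.03, 28.2 and 0.498 CPM in Milk and 0.404, 0.438 and 0.958 CPM in Sow, with Milk 2 far above the other libraries.

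Of 17 germ cell genes, 2 were lower and 2 higher at a p under 0.05 (1 and 1 without Sow 2). The median was −0.30 (−0.38 without Sow 2), and 12 of the 17 had a log2 fold change below 0, against 47.5% of all genes. DDX4, an RNA helicase of the germ line, had 3.10, 6.45 and 3.74 CPM in Milk and 11.4, 10.4 and 5.15 CPM in Sow (−1.01, interval −1.84 to −0.17, adjusted p = 0.132). MAEL, which silences transposons in germ cells, had 7.24, 6.20 and 4.36 CPM and 16.1, 15.9 and 7.43 CPM (−1.15, SE 0.39, adjusted p = 0.108). ID4, a mark of spermatogonial stem cells that somatic cells also express, lay the other way, at 21.9, 76.1 and 10.1 CPM in Milk and 3.77, 3.50 and 6.23 CPM in Sow (2.99, SE 0.87, adjusted p = 0.0899), with Milk 2 highest. KIT, at 75.7, 123 and 109 CPM and 133, 108 and 137 CPM, had an interval of −0.85 to 0.25. For the estrogen receptor ESR1 the interval was −0.77 to 0.26, and Milk and Sow overlapped. The list of estrogen-responsive genes had 5 of 18 higher and 1 lower at a p under 0.05. Leaving out Sow 2 gave 3 and 0. CCND1 and IGFBP4 were among the higher genes of this list, and LTF, the iron-binding milk and neutrophil protein lactoferrin, was the lower one (−2.19, 95% interval −3.96 to −0.42).

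The remaining lists had medians between −0.18 and 0.19. Of their members 18.2% to 27.6% had a p under 0.05, against 27.6% of all genes (14.9% higher and 12.7% lower). The immediate early list did not share this split by direction. Cell cycle genes had 4 higher and 3 lower of 37 at a p under 0.05 (1 and 0 without Sow 2, median −0.06), and CCND1, cyclin D1, was at 44.2, 83.6 and 43.3 CPM in Milk and 20.7, 20.3 and 30.3 CPM in Sow (1.26, SE 0.32, adjusted p = 0.0791). Immediate early and heat shock genes had 8 of 29 higher and 0 lower (4 and 1 without Sow 2, median 0.19), with the chaperone partner BAG3 at 41.7, 47.7 and 50.1 CPM and 23.3, 18 and 24.2 CPM (1.09, SE 0.23, adjusted p = 0.0722). Neither BAG3 nor CCND1 overlapped between the groups. Amino acid and unfolded protein stress genes had 3 higher and 4 lower of 26 (3 and 2 without Sow 2), retinoid genes 4 and 1 of 23 (3 and 1), and rete and epididymal genes 1 and 1 of 11 (also 1 and 1). PSAT1, an enzyme of serine synthesis, was at 261, 238 and 197 CPM in Milk and 358, 670.3 and 391 CPM in Sow (−1.03, SE 0.28, adjusted p = 0.0853). RARG, a retinoic acid receptor, was at 16.1, 30.9 and 20.4 CPM and 9.28, 5.70 and 8.87 CPM (1.5, SE 0.41, adjusted p = 0.0852). SLPI, a secreted protease inhibitor of the rete list, had 6.50, 68.6 and 3.74 CPM in Milk and 0.807, 2.19 and 1.68 CPM in Sow, again with Milk 2 highest.

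Milk was also set beside the other formulas. All comparisons with Sow share the same Sow libraries, so a value that is extreme in Sow appears in each of them. The log2 fold change of PHYHIPL against Sow was −4.32 in Milk and −4.59 in Soy, and the values of M + E2 and M + G were −4.83 and −4.28. No formula library exceeded 3.47 CPM for this gene. PDLIM3 (−1.33, −1.38, −1.42 and −1.29), ENSSSCG00000048477 (−4.55, −4.48, −3.66 and −4.76) and TXNIP (−1.08, −1.04, −1.07 and −1.17) are given in the same order of groups, and each was below 0 in all 4 formulas.

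In the direct comparison of Milk with Soy the Sow levels cancel from the fold change. The Sow libraries still entered the fit, and so the filter, the scaling and the pooled spread. By edgeR's quasi-likelihood test 0 genes were called (0.0%), with the smallest adjusted p at 0.0628. An unadjusted p under 0.05 was found for 418 genes (2.73%). With only Milk and Soy in the fit this number was 141, and 0 genes were called. DESeq2's Wald test called 6 genes and edgeR's exact test 5. Among the 8 genes described that were called against Sow, the widest gap between the cow's milk and the soy formula was in ENSSSCG00000018071. It had 17.0, 9.65 and 9.23 CPM in the Soy libraries against 4.14, 3.47 and 1.74 CPM in Milk, and between 1.34 and 2.57 CPM in M + E2 and M + G. Soy was thus within reach of Sow in this gene and above every library of the cow's milk formulas. The log2 difference of Milk from Soy was −1.94 (95% interval for this gene alone −2.66 to −1.22), and it did not pass over all genes (adjusted p = 0.335). ENSSSCG00000032946 was 1.08 log2 units above Soy (0.65 to 1.52, adjusted p = 0.521), with 19.3, 17.0 and 15.0 CPM in Soy. For PHYHIPL and PDLIM3 the intervals of the difference, −0.91 to 1.45 and −0.36 to 0.46, held 0, and for PHYHIPL the interval was too wide to call the formulas alike.

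**Figure D5:**
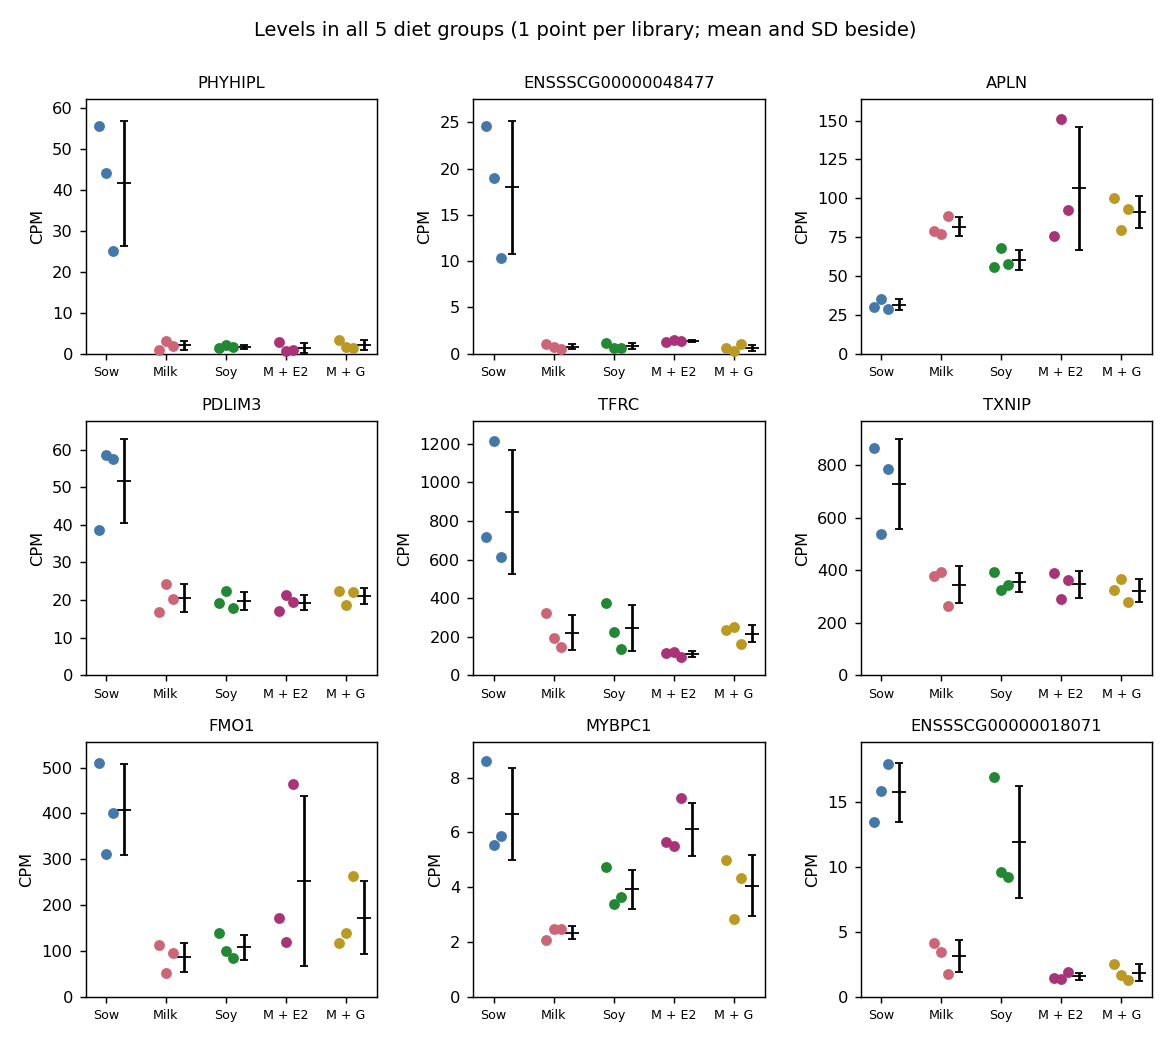
Level in CPM (y axis) of 9 genes in each library of the 5 diet groups (x axis), with the mean and SD beside the points. PHYHIPL, ENSSSCG00000048477, PDLIM3 and TXNIP are low in all 4 formula groups, ENSSSCG00000018071 is high in Sow and Soy and low in Milk, M + E2 and M + G, and MYBPC1 and FMO1 are spread among the formulas.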

How the data were processed

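Testis RNA of male piglets in 5 diet groups was sequenced as 15 libraries, each taken as 1 piglet. After trimming, reads were aligned in the CLC Genomics Workbench, and the authors deposited raw counts of reads per gene for every library, without scaling. The study aligned reads to a curated pig gene library before the Ensembl genome (Sscrofa11.1), and whether the deposited counts hold all reads is not given in the sources used here. In the column names 1 Sow and 1 Soy library carry no number, and these were used by their group only.

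The software was R 4.3.3, edgeR 4.0.16 and limma 3.58.1. Library sizes were scaled by TMM, and genes were kept by filterByExpr at its minimum count of 10. One quasi-likelihood fit of the 5 group means over all 15 libraries gave the contrasts Milk minus Sow and Milk minus Soy. Intervals are at 95% and for single genes. A count of 0 allows up to 3 reads, which covers counting error only. The steps were tested on simulated counts. P-values measure the spread between libraries within their diet groups, pooled over all 5 groups.

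The members, the 26 gene lists (819 symbols) and the tests were chosen with earlier results of these data known. Genes named are, by rule, the 12 with a symbol and the lowest p in each direction without overlap and at least 2-fold, the member of each list with the lowest p in each direction, fixed hormone, receptor and nutrient genes, the 2 leading genes without a symbol in each direction, and all called genes. VWF, CDH5, COL1A1, IGF1, HBB, FTL, IREB2, FBXL5, ARRDC3, KLHL24, CCNG2, SESN1 and PPM1K were chosen from the lists after their values were seen, and MYH11 and ACTA2 are the myoid cell markers. A few genes that the rule names, 1 called gene among them, entered every fit and count and are not reported here. Gene names came from the table (16446 genes) and from a table of gene identifiers (810), and positions by symbol from RefSeq annotation of Sscrofa11.1. Alternatives were Sow 2 left out, each library left out, a fit of the groups compared only, a minimum of 10 counts per library or no filter, DESeq2 1.42.0 size factors and its Wald test, edgeR's exact test, a replicate block and adjusted p alone.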

Additional observations from a re-analysis of the deposited data

How the results depend on the processing

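The number of genes called between Milk and Sow, 9, depended on the test. It was 575 with DESeq2's Wald test, 427 with edgeR's exact test (18 without Sow 2), 23 with no filter and 3 with at least 10 counts in every library. With only the groups compared in the fit it was 0, with and without Sow 2, with 2758 and 1163 genes at an unadjusted p under 0.05. DESeq2's size factors gave 8 and adjusted p alone 10. Leaving out single libraries gave 3 to 8 calls (6 without Milk 1, 4 without Milk 2, 5 without Milk 3, 3 without Sow 2 or Sow 3, 8 without the unnumbered Sow library). All 9 genes were called by DESeq2's Wald test and by the exact test. In the fit of the groups compared the adjusted p of the 8 described was 0.202, or 0.0528 for PHYHIPL and ENSSSCG00000048477. Why the tests differ was not tested.

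For Milk against Soy, 0 calls became 6 with DESeq2's Wald test, 5 with the exact test and 1 with no filter, and 0 to 1 when single libraries were left out (1 without Milk 1).

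With the replicate number as a block, without the unnumbered Sow and Soy libraries, there were 15 calls against Sow (2 higher and 13 lower). Of the 9 calls 4 were shared, all lower in Milk, and 0 of the 5 higher genes. The adjusted p of APLN, CA11, ENSSSCG00000022176 and ENSSSCG00000032946 was then 0.0591 to 0.0719. Same-numbered Milk and Sow libraries deviated together at r = 0.159 and 0.308, and with only 2 pairs the numbers were not taken as a pairing.

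Differences near 0 changed sign. The log2 fold change ran, with single libraries left out, from −0.19 to 0.48 for AMH, −0.24 to 0.40 for CYP17A1, −0.57 to 0.26 for STAR, −0.32 to 0.23 for FSHR, −0.47 to 0.11 for ALAS2, −0.52 to 0.21 for SOX9, −0.41 to 0.16 for LHCGR and −0.38 to 0.062 for GHR. Without Sow 2, both the exact test and the fit of the groups compared gave −0.12 for AMH, 0.015 for STAR and 0.13 for GHR. Of the medians of the 26 lists under the alternatives, 264 stayed within the spread between libraries and 22 did not.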

Other observations

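The largest fitted differences of all belonged to genes that were high in Milk 2 and were not called. ENSSSCG00000010610, a gene without a symbol, had 0.148, 5.58 and 1.74 CPM in Milk 1, 2 and 3 and no read in any Sow library, where up to 0.359 to 0.438 CPM could go unseen. CBLN2, a secreted organizer of synapses, had 1.03, 23.3 and 0.498 CPM in Milk and 0.538, 0.146 and 0.120 CPM in the unnumbered Sow library, Sow 2 and Sow 3 (log2 fold change 4.89). Milk 1 and Milk 3 were near the Sow libraries for CBLN2. Both genes were chosen after their values were seen.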
